A study of Mus musculus with 25 samples.

Results

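The guidance genes described here encode 4 groups of extracellular cues and their receptors, namely semaphorins, netrins, slits and teneurins. The rule that defines them uses gene symbols and no measured value, but the list was chosen with earlier results of these data known. Of 55385 genes in the files 52 were members, comprising 20 semaphorins (Sema3 to Sema7), 9 plexins, 2 neuropilins, 3 slits, 4 Robo receptors, 4 netrins, 6 netrin receptors (Dcc, Neo1 and Unc5a to Unc5d) and 4 teneurins.

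Semaphorins are secreted or membrane-bound ligands that steer growing axons, mostly by repulsion, and signal through plexins, with neuropilins as co-receptors for most of the secreted class. Netrins attract through Dcc and neogenin (Neo1) and repel through the Unc5 receptors, slits repel through Robo receptors, and teneurins are adhesion molecules that bind latrophilins across cell contacts. The same molecules guide endothelial cells and the neural crest, the embryonic population from which melanocytes arise, and several of them are known from melanocytes and melanoma.

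RNA-seq was performed on 5 murine melanoma cell lines with 5 biological replicates each, grown without drug treatment and harvested before confluency. WT31 was derived from Tyr::Nras mice carrying NrasQ61K on an INK4a-/- background, RET from transgenic mice in which the metallothionein promoter drives the RET oncogene, and B16F10 luc2 is a purchased line labelled with luciferase. D4M originated in mice that combine Cre under the tyrosinase promoter (Tyr::CreER) with the alleles BrafCA and Ptenlox/lox, and HCmel12 in a primary melanoma of HGF-CDK4(R24C) mice. WT31, B16F10 luc2 and RET are the lines with high or intermediate colonization of the liver (HIM-melanoma), and D4M and HCmel12 those with low colonization (LM-melanoma). Each genotype is represented by a single line, so that genotype, line and metastatic class cannot be told apart. HIM-melanoma shared one medium, RPMI with fetal calf serum, whereas HCmel12 received RPMI with further supplements and D4M Advanced DMEM/F-12 with less serum, and the part of the medium in any difference was not tested. The replicates are cultures of a line, and p-values measure the spread between such cultures.

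Levels between lines are given as CPM, the estimated counts scaled to a common library total with TMM factors, and levels between genes as TPM, which is scaled by transcript length. Totals lay between 24199083 and 25843286 counts per library, replicates of a line correlated at 0.9837 or more, and libraries of different lines at 0.9578 or less. The summed CPM of 10 melanocyte lineage genes was 12100 or more in every library of WT31, B16F10 luc2, RET and HCmel12 but 14.1 to 69.6 in D4M, where Sox10, a transcription factor that defines the lineage, averaged 0.551 CPM. D4M instead had 450 to 674 summed CPM of 6 fibroblast markers, against at most 88.6 in the libraries of the other lines. Of these markers 3 averaged above 1 CPM in D4M (among them Col1a1 at 144 CPM), as did 3 in RET, 2 in B16F10 luc2, 1 in WT31 and 0 in HCmel12, and leukocyte and keratinocyte markers were near 0 in every line. Of 4 neuron markers, 1 was above 1 CPM in D4M (Syn1, a synaptic vesicle protein, at 9.8 CPM) and none elsewhere, and their sum was 6.39 to 13.8 CPM in D4M libraries against at most 0.628 in those of the other lines. Sox2, a transcription factor of neural progenitors, averaged 248 CPM in D4M and 10.5 in WT31. The part of these markers in the levels of guidance genes was not tested. In bulk cultures fewer cells of a kind and less RNA per cell cannot be told apart. A pair of libraries stood apart from their line, D4M replicate 1 in pigment genes only and not in its correlation. D4M replicate 1 contained 27 CPM of Tyrp1, a pigment enzyme, against 0 to 2.85 in the other D4M libraries. Its mean correlation with its own line was 0.9947, against 0.9934 to 0.9943 for the other D4M libraries. HCmel12 replicate 4 had 30 CPM of tyrosinase against 6.31 to 9.13 and the lowest mean correlation with its own line (0.9896). Among 470 comparisons of the 47 tested members (10 pairs of lines each), leaving out HCmel12 replicate 4 changed the call in 10, leaving out D4M replicate 1 in 1 (Tenm2), and leaving out both in 12, and the values are given beside the genes they touch.

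For 2 members the study designed qPCR primers, which mark the part of the transcript that was followed there. They are shown because each pair detects only some transcripts of its gene. Primers are written 5′ to 3′ and were located on GENCODE M21 transcripts of GRCm38.
Unc5c forward: actgtactgtgtcagaggaacc
Unc5c reverse: tagcttctgccggataggga
Tenm3 forward: tggtgacgtttggcttccat
Tenm3 reverse: tccaaagatgggcggcac
The Unc5c pair lies on the plus strand of chromosome 3, with the forward primer across the junction of exons 14 and 15 (chr3:141818179-141827505) and the reverse primer in exon 15 (chr3:141827586-141827605). Both sites are coding, give a product of 122 bases and occur in 4 of 8 annotated transcripts of Unc5c and in no other guidance gene. Transcripts of genes outside the members were not searched for the primers. The Tenm3 pair lies on the minus strand of chromosome 8, in exon 28 (chr8:48232104-48232123) and across the junction of exons 28 and 29 (chr8:48229190-48232013). Its product of 128 bases is coding and occurs in 2 of 8 annotated transcripts of Tenm3. The deposited values are sums per gene, so the other transcripts of both genes are included in every value below.

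To see what the promoters of genes with the same direction share, the RefSeq promoters (GRCm38.p6, 250 bases before to 50 bases after the start of transcription) of 2 genes higher and 2 genes lower in HIM-melanoma are shown 5′ to 3′ on the strand of the gene. Capitals mark matches to any of 4 searched motifs, all searched on both strands. The first was the M-box core CATGTG, an E-box that Mitf can bind. The second was the palindromic E-box CACGTG. The third was the AP-1 site TGANTCA. The fourth was the TATA box, searched as TATAAA. No match overlapped another in the promoters shown, and a promoter without capitals holds none of the motifs in this window.
Unc5c, chr3:141465314-141465613, plus strand: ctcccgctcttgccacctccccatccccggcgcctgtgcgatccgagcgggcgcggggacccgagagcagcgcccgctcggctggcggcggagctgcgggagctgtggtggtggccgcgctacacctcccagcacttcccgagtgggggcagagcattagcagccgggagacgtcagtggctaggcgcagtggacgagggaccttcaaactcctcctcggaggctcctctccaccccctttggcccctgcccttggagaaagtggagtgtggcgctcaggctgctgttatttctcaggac
Robo1, chr16:72662899-72663198, plus strand: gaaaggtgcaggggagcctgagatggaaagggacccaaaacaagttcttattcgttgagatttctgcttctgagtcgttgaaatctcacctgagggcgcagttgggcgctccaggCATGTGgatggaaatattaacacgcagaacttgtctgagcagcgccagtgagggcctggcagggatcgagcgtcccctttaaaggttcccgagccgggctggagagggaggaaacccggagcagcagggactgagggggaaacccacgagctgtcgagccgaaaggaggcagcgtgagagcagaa
Tenm3, chr8:48674641-48674940, minus strand: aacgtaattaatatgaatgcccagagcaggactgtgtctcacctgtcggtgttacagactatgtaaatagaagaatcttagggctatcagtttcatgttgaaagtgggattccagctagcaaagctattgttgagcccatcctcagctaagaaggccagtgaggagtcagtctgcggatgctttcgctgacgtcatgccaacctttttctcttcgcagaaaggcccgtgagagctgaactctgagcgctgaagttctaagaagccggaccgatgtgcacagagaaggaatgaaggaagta
Slit2, chr5:47982905-47983204, plus strand: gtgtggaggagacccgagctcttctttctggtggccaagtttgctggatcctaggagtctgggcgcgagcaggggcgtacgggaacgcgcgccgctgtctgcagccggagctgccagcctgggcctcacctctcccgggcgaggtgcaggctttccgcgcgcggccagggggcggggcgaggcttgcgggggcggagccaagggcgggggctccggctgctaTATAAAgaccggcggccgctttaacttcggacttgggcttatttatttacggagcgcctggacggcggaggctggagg
Robo1 held 1 M-box core and Slit2 1 TATA box, whereas the windows of Unc5c and Tenm3 held none of the motifs. RefSeq entries were found for 43 of 52 members, with 57 promoters in all, and each motif was at most as frequent among them as among all 32851 promoters. The M-box core was found in 10.5% of member promoters and 14.2% of all, the palindromic E-box in 7.02% and 7.15%, the AP-1 site in 5.26% and 7.81%, and the TATA box in 3.51% and 13.6%. CpG dinucleotides were more numerous in member promoters, with a median of 15 per 300 bases against 7 over all promoters. The Unc5c, Robo1 and Tenm3 windows lie inside the spans that GENCODE M21 gives these genes, so that other starts exist. These are descriptions of letters and not of binding sites.

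The first question was which guidance genes were expressed at all. A mean of at least 10 CPM in some line was reached by 39 of 52 members and of at least 100 CPM by 16. The filter on low counts retained 47 members for testing, and Ntn5, Robo3, Robo4, Tenm1 and Unc5d did not pass it, with highest line means of 0.103, 0.322, 0.13, 0.0888 and 0.0325 CPM. Transcripts of members shared little sequence with other genes (a median of 0.338% of their 31-base stretches). More than 5% was shared by Ntn5, Plxna1, Sema4c and Tenm1, so that reads of these 4 genes may have been divided with a neighbour.

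**Figure D1:**
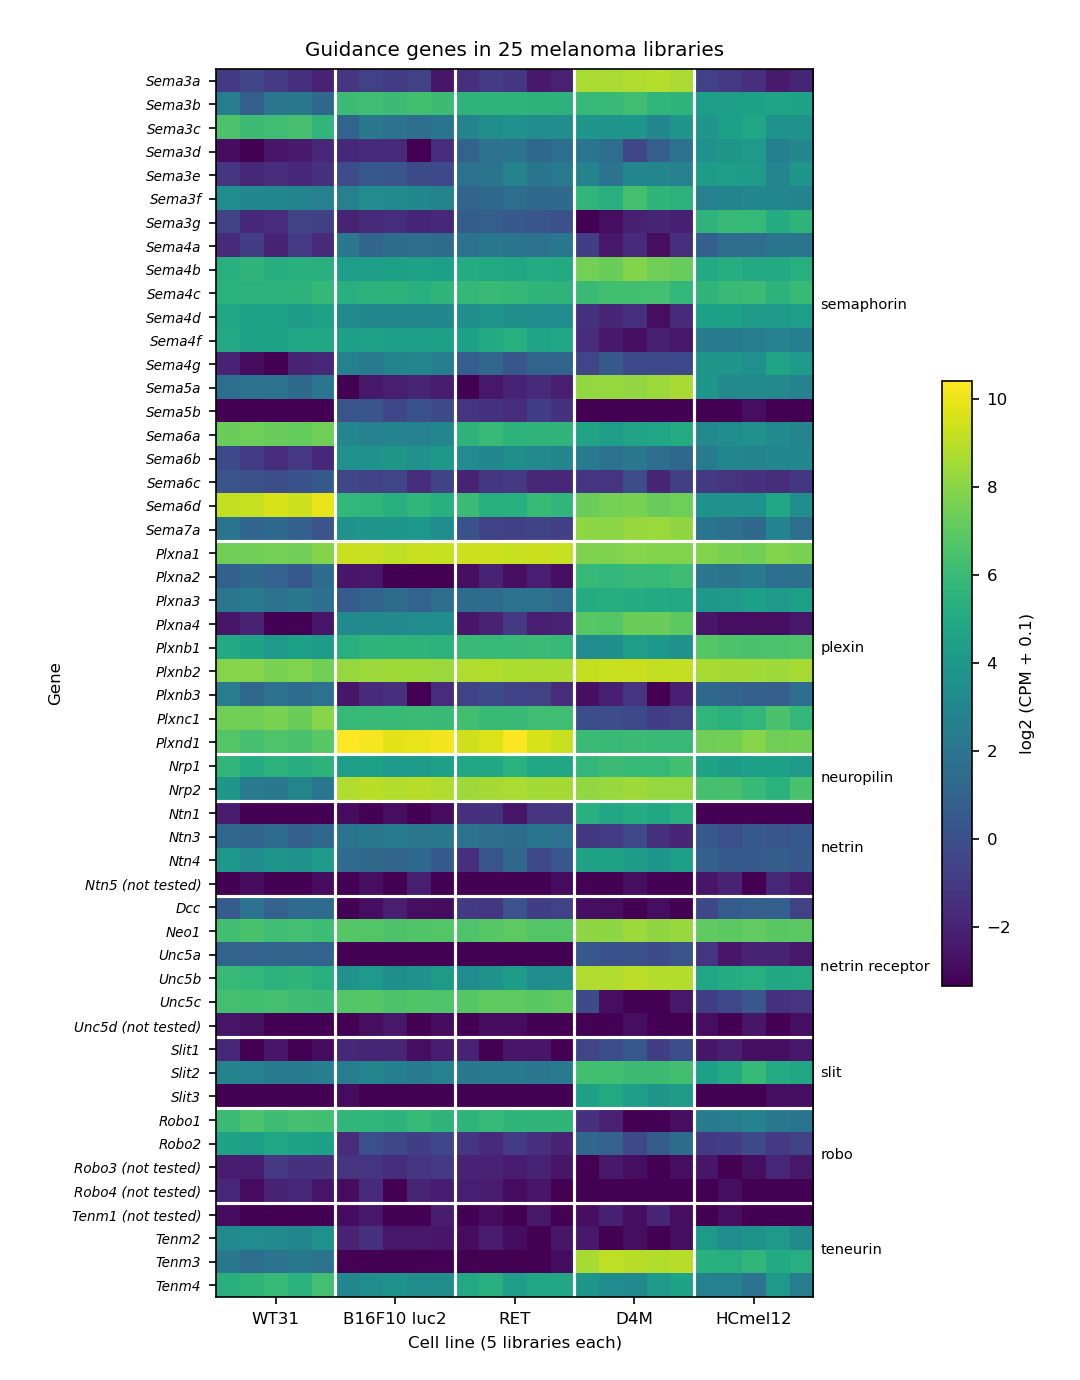
Level of the 52 guidance genes in 25 libraries. Columns are libraries grouped by line, rows are genes grouped by family, and colour gives log2 of CPM with 0.1 added. Replicates of a line look alike, and blocks of genes such as Sema3a, Sema5a, Slit3 and Tenm3 are bright in D4M only or mainly.

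Summed over the family, semaphorin transcripts reached 503 ± 41.9 TPM (SD, n = 4) in D4M and 324 ± 45 (SD, n = 5) in WT31, against 122 ± 2.97 in B16F10 luc2, 126 ± 6.77 in RET and 114 ± 7.93 in HCmel12. The composition differed as well. Sema6d alone, a membrane semaphorin that binds plexin-A1, contributed 56% of the sum in WT31, and Sema3a, the secreted semaphorin that collapses growth cones, was the first of the family in D4M with 26.8%. Plexin transcripts ran in another order, with 561 ± 69 TPM in B16F10 luc2 and 512 ± 78 in RET, and 193 ± 10.6 in WT31, 244 ± 17.5 in D4M and 241 ± 10.3 in HCmel12. Plxnd1, the receptor of Sema3e, made up 55.2% of the plexin sum in B16F10 luc2 and 42.7% in RET, and Plxnb2, a receptor of class 4 semaphorins, led in the other 3 lines. With 2 or 3 genes above 1 TPM per line, netrin receptors summed to 180 ± 17.2 TPM in D4M and to between 40.7 and 53.1 in the other lines. Netrins and slits were low throughout, with at most 15.8 ± 2.34 and 20.8 ± 2.87 TPM, both in D4M.

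**Figure D2:**
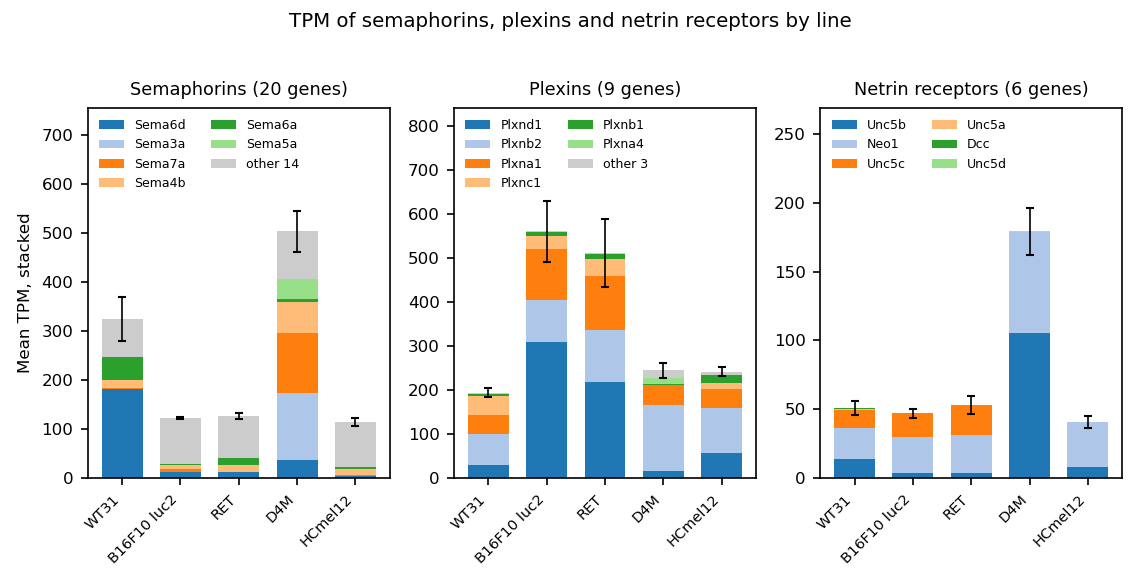
Mean TPM per line stacked by gene for semaphorins, plexins and netrin receptors. Bars start at 0, the 6 leading genes of a family are coloured and the rest pooled in grey, and error bars are the SD of the family sum over libraries (n = 5, D4M n = 4). Sema6d fills most of the WT31 bar, Plxnd1 most of the B16F10 luc2 bar, and Unc5b most of the D4M netrin receptor bar.

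Between lines, guidance genes differed often, but so did all genes. Of the 47 tested members 39 differed between WT31 and B16F10 luc2 by voom and limma (adjusted p below 0.05), where 72.8% of all tested genes did. The number was 41 for WT31 against RET (73.2% of all genes), 45 for WT31 against D4M (76.1%) and 38 for WT31 against HCmel12 (70.4%). For B16F10 luc2 it was 28 against RET (51.5%, or 15 members and 14.3% of all genes whose log2 fold change was also 1 or more in size), 41 against D4M (77.7%) and 35 against HCmel12 (69.1%). RET differed in 41 members from D4M (77.1%) and in 35 from HCmel12 (67.2%), and D4M and HCmel12 differed in 43 (72.5%). A gene that is high in a single line passes the filter through that line and then has to differ, which holds for members and for all genes alike, so these shares are a description. The median absolute log2 fold change of the members was 3.26 for WT31 against D4M, where that of all tested genes was 0.66, and 0.56 for B16F10 luc2 against RET, where it was 0.31. The median log2 range over the 5 lines was 5.56 for members and 1.41 for all tested genes. With genes that had no counts in a line set to the bound that 3 counts allow, it was 5.34 and 1.41. A range of at least 4 on the log2 scale was found in 34 of 47 members and in 23.3% of all tested genes.

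**Figure D3:**
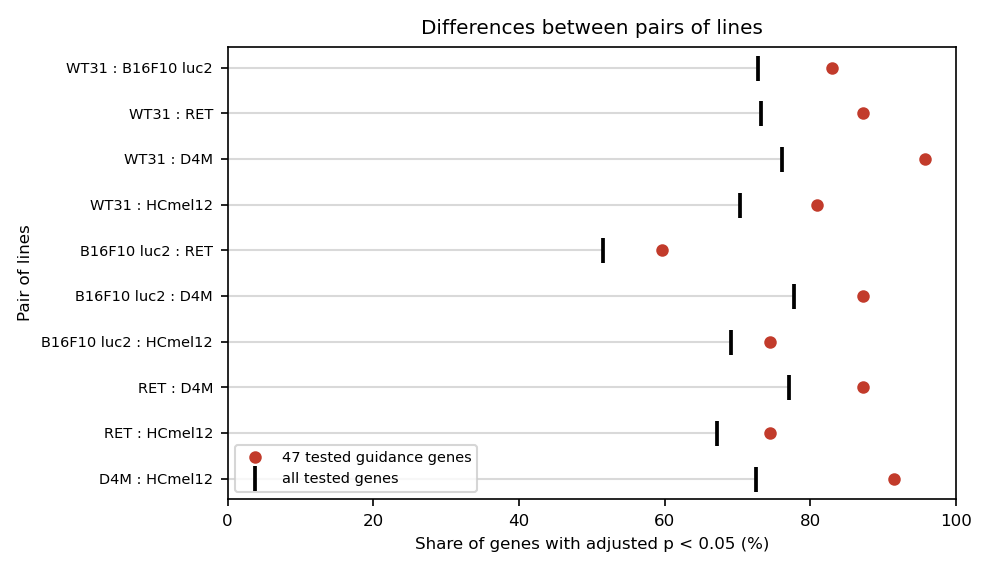
Share of genes that differed in each of the 10 pairs of lines (voom and limma, adjusted p below 0.05). Points give the 47 tested guidance genes, and vertical ticks give all 15247 tested genes. The points lie to the right of the ticks in every pair, and B16F10 luc2 against RET has the lowest share for both.

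Members were highest in D4M most often (19 of 47, 40.4%, against 27.4% of all tested genes), followed by WT31 with 12 (25.5%, against 22.3%), B16F10 luc2 with 6 (12.8%, against 17.8%), HCmel12 with 6 (12.8%, against 16.8%) and RET with 4 (8.51%, against 15.6%). The share that was lowest in D4M (14 of 47, 29.8%) was near that of all tested genes (26.5%). When the 5 lines were ordered by level, 10 members (21.3%) differed between every neighbouring pair in the order, where 7.19% of all tested genes did. One neighbouring pair did not pass the threshold in 15 members (31.9%, against 22.6% of all), 2 pairs in 15 (31.9%, against 32.7%), 3 pairs in 7 (14.9%, against 27%) and all 4 in 0 (against 10.5%). The same 10 members differed in all 10 pairs, as did the same 7.19% of all tested genes, so this is not a separate result.

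A gene was called commonly regulated when each HIM-melanoma line differed from each LM-melanoma line in one direction, which takes 6 comparisons. Higher in HIM-melanoma were 4 members, Unc5c, Robo1, Sema4f and Ntn3, where 6.53% of all tested genes were. Lower were 6 members, Neo1, Plxna2, Plxna3, Sema5a, Slit2 and Tenm3, where 6.4% of all were. Scaled by library size alone, the same 4 and 6 members were called, where 8.36% and 4.98% of all tested genes were. The 4 genes comprised a ligand of each of 2 classes and 2 receptors, and the 6 comprised 2 ligands, 3 receptors and 1 adhesion molecule. The 6 comparisons share lines and are not independent of each other.

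**Figure D4:**
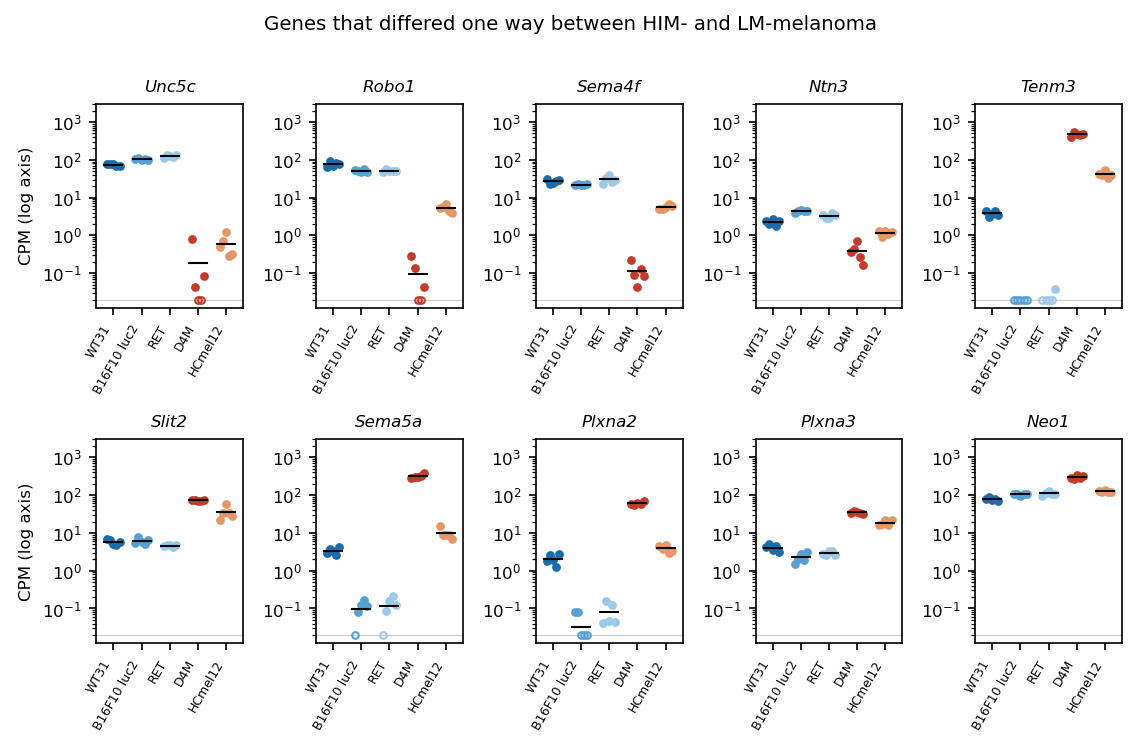
CPM of the 10 commonly regulated guidance genes in every library on a log axis. Points are libraries, bars are line means, and open points on the grey line at 0.02 CPM are libraries with 0 counts. Unc5c, Robo1, Sema4f and Ntn3 are higher in the 3 HIM-melanoma lines on the left of each panel, and the other 6 are higher in D4M and HCmel12.

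Positions below are those of GENCODE M21 on GRCm38. Unc5c (chr3:141465216-141834924), a repulsive netrin receptor with a death domain, had 77.9, 76.5, 78.9, 70.4 and 69.1 CPM in replicates 1 to 5 of WT31, 106, 109, 96.9, 104 and 97.6 in B16F10 luc2 and 109, 133, 126, 117 and 134 in RET. In LM-melanoma the values were 0.827, 0.0444, 0, 0 and 0.0851 in D4M and 0.481, 0.717, 1.22, 0.282 and 0.325 in HCmel12. No library of LM-melanoma came near those of HIM-melanoma, and the smallest of the 6 differences, WT31 against HCmel12, was 7.1 ± 0.34 on the log2 scale (SE, adjusted p = 6.9e-16). RET exceeded HCmel12 by 205-fold in mean CPM. D4M replicate 1 carried most of the D4M counts of Unc5c, and it is also the D4M library with the strongest traces of pigment genes. The part of those traces in its Unc5c value was not tested, and without that library the gene was still commonly regulated. HIM-melanoma lines differed among themselves by less, with RET 1.66-fold above WT31 (adjusted p = 1.6e-07).

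Robo1 (chr16:72308306-73046095), a receptor of slits, had 65.6, 93.1, 69.4, 83.1 and 75.9 CPM in WT31, 52.7, 52, 47.2, 57.6 and 47.9 in B16F10 luc2 and 48.2, 58.4, 49.9, 50.5 and 50 in RET. D4M libraries had 0.284, 0.141, 0, 0 and 0.0426 CPM and HCmel12 libraries 5.21, 5.58, 6.93, 4.34 and 3.98 CPM. Libraries of HIM- and LM-melanoma did not overlap, and HCmel12 took an intermediate place. RET exceeded HCmel12 by 3.32 ± 0.17 on the log2 scale (adjusted p = 2.4e-15), and HCmel12 exceeded D4M 55.6-fold in mean CPM. D4M replicate 1 held most of the few D4M counts, and without it this ratio was 113-fold. Between B16F10 luc2 and RET the log2 difference was 0 ± 0.1 (95% confidence interval -0.21 to 0.21, adjusted p = 1).

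Sema4f (chr6:82911885-82939769), a membrane semaphorin, showed the same order of classes with smaller values. It had 31.1, 23, 24.9, 26.9 and 28.9 CPM in WT31, 21.7, 22.7, 21.3, 21.7 and 22.3 in B16F10 luc2 and 22.6, 33.1, 40.9, 26.2 and 28.6 in RET. In D4M 0.23, 0.0888, 0.0445, 0.133 and 0.0851 CPM were measured and in HCmel12 5.05, 5.06, 5.79, 6.58 and 6.06. The smallest difference of the 6, B16F10 luc2 against HCmel12, was 1.95 ± 0.16 on the log2 scale (adjusted p = 4.3e-11), and WT31 and RET did not differ beyond the threshold (-0.15 ± 0.11, adjusted p = 0.23).

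Ntn3 (chr17:24203848-24209531), a secreted netrin related to Ntn1, was low in all lines. The libraries of WT31 had 2.43, 2.01, 2.64, 1.73 and 2.43 CPM, those of B16F10 luc2 3.85, 4.43, 4.7, 4.33 and 4.46 and those of RET 3.48, 2.86, 2.84, 3.92 and 3.43. In D4M it had 0.368, 0.444, 0.712, 0.266 and 0.17 CPM and in HCmel12 1.28, 0.916, 1.3, 1.09 and 1.26. Every HIM-melanoma library lay above every LM-melanoma library, but WT31 and HCmel12 were only 1.92-fold apart (log2 difference 0.93 ± 0.19, adjusted p = 0.00014). With TPM in place of counts this difference no longer passed the threshold (0.22 with a pseudocount of 1, adjusted p = 0.12).

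Tenm3 (chr8:48227682-48843951), an adhesion molecule that matches synaptic partners, ran the other way. D4M libraries had 392, 537, 484, 452 and 489 CPM, HCmel12 libraries 42.6, 40.1, 52.3, 34 and 40.8 and WT31 libraries 4.4, 3, 3.68, 4.54 and 3.47. No count was found in any B16F10 luc2 library, and 1 count was found in RET, in replicate 5. The 5 lines thus formed 3 levels and a pair with at most 1 count, where 0 counts allow up to 0.0242 CPM over the 5 libraries of B16F10 luc2. WT31 was 3.45 ± 0.16 below HCmel12 on the log2 scale (adjusted p = 2e-16), and D4M was 3.49 ± 0.08 above HCmel12 (adjusted p = 2.5e-22). HCmel12 was at least 1730-fold and D4M at least 19500-fold higher than B16F10 luc2. For WT31 this bound was 158-fold, so the difference within HIM-melanoma was itself large.

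Slit2 (chr5:47983138-48307733), a secreted ligand of Robo1 and Robo2, had 75.4, 74.9, 68.2, 68.8 and 75.4 CPM in D4M and 21.6, 33.9, 58, 34.5 and 27.2 in HCmel12. In WT31 it had 7.09, 6.41, 5.08, 4.84 and 5.76 CPM, in B16F10 luc2 5.47, 7.79, 5.89, 4.95 and 6.66 and in RET 4.43, 4.79, 4.69, 4.12 and 4.71. The 3 HIM-melanoma lines did not differ from each other beyond the threshold (adjusted p between 0.23 and 0.83), whereas HCmel12 was 2.44 ± 0.22 above B16F10 luc2 on the log2 scale (adjusted p = 1.7e-10). HCmel12 varied most, from 21.6 CPM in replicate 1 to 58 CPM in replicate 3. Slit2 and its receptor Robo1 were thus opposite in direction between the classes of lines.

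Sema5a (chr15:32244810-32696341), a membrane semaphorin with thrombospondin repeats, had 290, 300, 296, 323 and 389 CPM in D4M, 15.5, 8.8, 8.92, 8.76 and 6.71 in HCmel12 and 3, 3.72, 3.35, 2.58 and 4.17 in WT31. Libraries of B16F10 luc2 had 0, 0.0831, 0.124, 0.165 and 0.116 CPM and those of RET 0, 0.086, 0.158, 0.216 and 0.121. The latter 2 lines were near the limit of detection and did not differ beyond the threshold (-0.14 ± 0.8, adjusted p = 0.91). WT31 was 1.49 ± 0.25 below HCmel12 on the log2 scale (adjusted p = 6.5e-06), and D4M was 32.8-fold above HCmel12.

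Plxna2 and Plxna3 encode A-type plexins, which transduce secreted semaphorins together with neuropilins. Plxna2 (chr1:194618218-194816869) had 59, 53.9, 61.5, 59 and 70.1 CPM in D4M, 4.41, 3.82, 4.9, 2.99 and 3.25 in HCmel12 and 1.82, 2.59, 1.9, 1.27 and 2.77 in WT31. B16F10 luc2 had 0.0797, 0.0829, 0, 0 and 0 CPM and RET 0.0402, 0.159, 0.0465, 0.12 and 0.043. The levels fell in steps, D4M 15.7-fold above HCmel12 and HCmel12 1.87-fold above WT31 (log2 difference -0.93 ± 0.22 for WT31 against HCmel12, adjusted p = 0.00068). This difference is below 1 in size, so that Plxna2 is not commonly regulated where that size is required as well. On TPM it was not tested, since it reached 1 TPM in only 4 libraries. Plxna3 (chrX:74329066-74344689) had 34.4, 38.1, 36.6, 34 and 32 CPM in D4M and 15.8, 17.4, 21.7, 16.3 and 22 in HCmel12. The values were 4.13, 5.01, 3.53, 4.38 and 3.14 in WT31, 1.47, 2.07, 2.84, 1.9 and 3.07 in B16F10 luc2 and 2.84, 2.64, 3.39, 3.4 and 2.66 in RET. All HIM-melanoma libraries lay below all LM-melanoma libraries for Plxna3, with WT31 2.21 ± 0.15 below HCmel12 on the log2 scale (adjusted p = 4e-13).

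Neo1 (chr9:58874687-59036441), the neogenin receptor of netrins and repulsive guidance molecules, was expressed in every library and had the smallest difference among the commonly regulated members. It had 276, 265, 335, 279 and 313 CPM in D4M and 131, 123, 139, 118 and 124 in HCmel12. WT31 had 77.1, 87.8, 74.7, 78.1 and 71.5 CPM, B16F10 luc2 109, 108, 94.8, 104 and 108 and RET 97.2, 115, 126, 106 and 108. D4M stood clearly above the other lines, whereas the ranges of HCmel12 and RET overlapped. RET was 0.2 ± 0.07 below HCmel12 on the log2 scale (adjusted p = 0.014), and without RET replicate 1 the difference was -0.16 with an adjusted p of 0.061, so that this call depends on that library. The call was also lost on TPM, which does not cover D4M replicate 1 (-0.19 with a pseudocount of 1, adjusted p = 0.057). With all libraries it was lost at a threshold of 0.01. Neo1 was the netrin receptor with the highest TPM in all lines but D4M, with 32.3 ± 2.92 TPM (SD, n = 5) in HCmel12.

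A second group comprised genes restricted to a single line, with a mean of at least 10 CPM there and at least 8 times the mean of every other line. Among the 39 members that reached 10 CPM in some line, 11 were restricted (28.2%) and 9 of these to D4M. The shares over all genes that reached 10 CPM were 5.68% and 3.89% for D4M. The 9 genes were Sema3a, Sema5a, Sema7a, Ntn1, Slit3, Plxna2, Plxna4, Unc5b and Tenm3, and they included ligands of every group of secreted cues. Robo2 was restricted to WT31 and Sema3g to HCmel12. D4M is also the line in which each of the 10 melanocyte markers averaged under 10 CPM, and it was grown in a medium that no other line shared, as was HCmel12. The part of either in these levels was not tested.

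**Figure D5:**
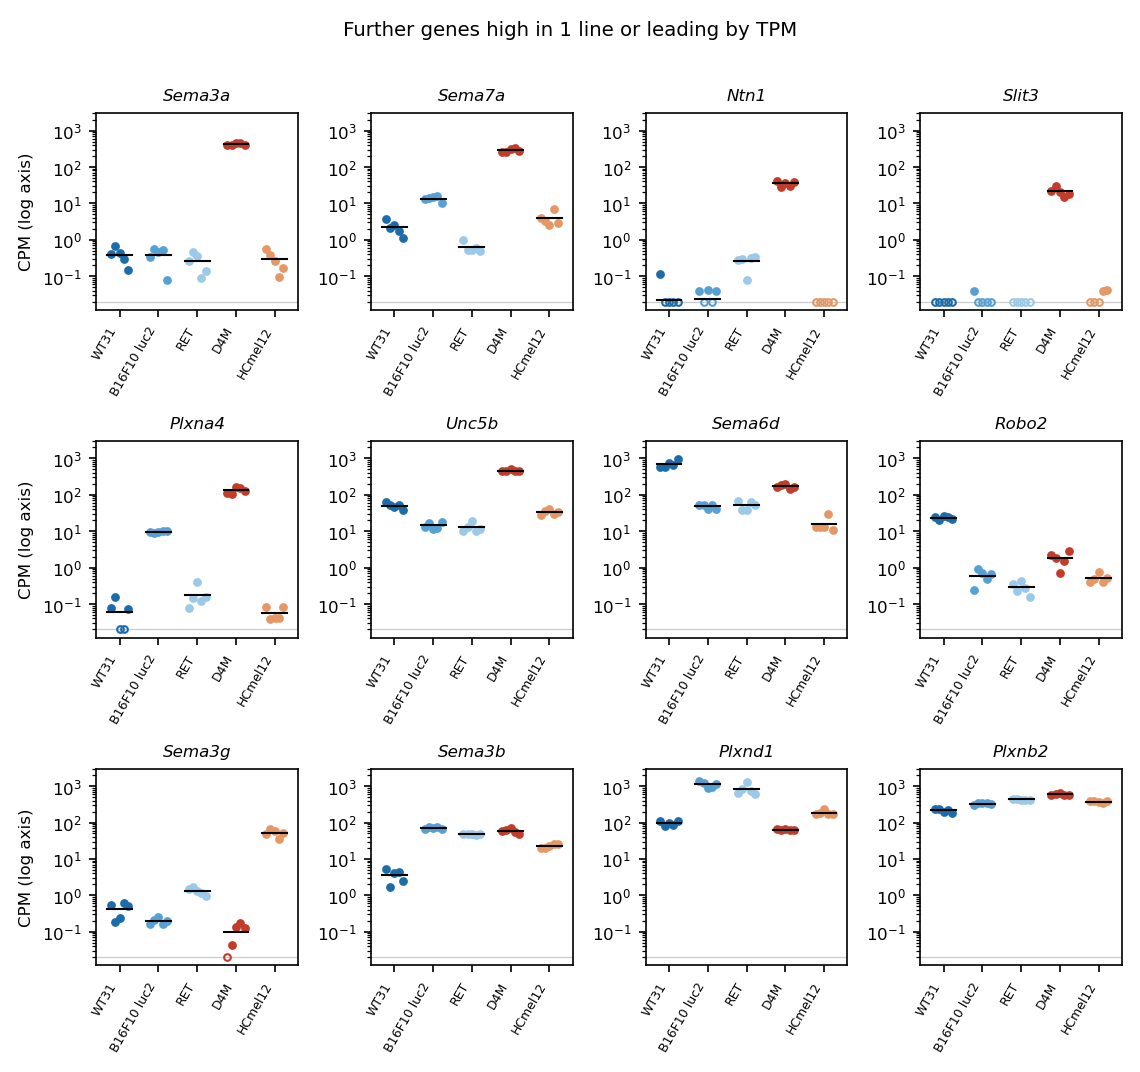
CPM of 12 further guidance genes in every library on a log axis. Points are libraries, bars are line means, and open points on the grey line at 0.02 CPM are libraries with 0 counts. Sema3a, Sema7a, Ntn1, Slit3, Plxna4 and Unc5b are highest in D4M, Sema6d and Robo2 in WT31, and Sema3g in HCmel12.

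Sema3a (chr5:13125414-13602565) had 402, 413, 442, 469 and 413 CPM in D4M. Its values were 0.395, 0.664, 0.427, 0.288 and 0.149 in WT31, 0.344, 0.543, 0.453, 0.536 and 0.0763 in B16F10 luc2, 0.268, 0.451, 0.348, 0.0908 and 0.137 in RET and 0.547, 0.38, 0.259, 0.0953 and 0.172 in HCmel12. Outside D4M the gene was low in every library, and no neighbouring pair of these 4 lines in the order of levels differed beyond the threshold. D4M was 1100-fold above B16F10 luc2 in mean CPM (log2 difference for B16F10 luc2 against D4M -10.27 ± 0.35, adjusted p = 3.4e-19). With 135 ± 8.48 TPM (SD, n = 4) it was the ligand with the highest level in D4M.

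Sema7a (chr9:57940112-57962865), a semaphorin anchored to the membrane by a lipid, followed with 123 ± 12.6 TPM in D4M. It had 265, 258, 318, 323 and 279 CPM in D4M and 12.9, 14.2, 14.6, 15.7 and 10.3 in B16F10 luc2. In WT31 it had 3.79, 2.13, 2.52, 1.73 and 1.14 CPM, in RET 0.988, 0.52, 0.512, 0.6 and 0.501 and in HCmel12 3.89, 3.31, 2.47, 7.14 and 2.97. Every neighbouring pair in the order of levels differed with all libraries, but WT31 and HCmel12 did so by -0.81 on the log2 scale (adjusted p = 0.015) and, without HCmel12 replicate 4, by -0.57 ± 0.28 (adjusted p = 0.07). D4M was 21.3-fold above B16F10 luc2 (log2 difference for B16F10 luc2 against D4M -4.42 ± 0.13, adjusted p = 1.6e-20). Plxnc1, its plexin receptor, ran from 0.488 to 0.873 CPM in the D4M libraries and from 43.2 to 243 in the libraries of all other lines.

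Ntn1 (chr11:68209364-68400823), the founding netrin, had 41.8, 28.9, 36.4, 30.5 and 39.8 CPM in D4M. RET libraries had 0.277, 0.297, 0.0788, 0.32 and 0.347 CPM. Only 3 counts each were found over the libraries of WT31 and B16F10 luc2 and none in HCmel12. D4M was 134-fold above RET in mean CPM (log2 difference for RET against D4M -7.09 ± 0.34, adjusted p = 2.6e-16) and at least 1470-fold above HCmel12. Netrin-1 was thus detected at an appreciable level in a single line, while at least one of its receptors, Neo1 or Unc5b, was expressed in all 5.

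Slit3 (chr11:35121224-35708507), a second ligand of Robo receptors, had 22, 30.8, 20.3, 15.4 and 17.8 CPM in D4M and a total of 1 count in B16F10 luc2, 2 counts in HCmel12 and none in WT31 and RET. The ratio of D4M to HCmel12 was 1310, with a counting interval of 364 to 10900, and was 2090 without HCmel12 replicate 4 and 2110 without HCmel12 replicate 5, while D4M was at least 931-fold above WT31. Slit1 remained at or below 1.25 CPM in every library, with the highest value in D4M replicate 3.

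Plxna4 (chr6:32144268-32588192), the A-type plexin of Sema3a signalling in sensory neurons, had 115, 108, 159, 153 and 124 CPM in D4M and 9.28, 9.12, 9.4, 10.1 and 10.3 in B16F10 luc2. WT31 had 0.0758, 0.152, 0, 0 and 0.0738 CPM, RET 0.079, 0.149, 0.394, 0.12 and 0.154 and HCmel12 0.0803, 0.0398, 0.0405, 0.0404 and 0.0813. The gene was therefore clearly detected in 2 lines of different metastatic class, 13.7-fold apart (log2 difference for B16F10 luc2 against D4M -3.76 ± 0.13, adjusted p = 3.5e-19).

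Unc5b (chr10:60762593-60831581), the Unc5 receptor known from endothelial tip cells, had 441, 439, 524, 459 and 449 CPM in D4M and 63.8, 53.9, 44.7, 50.7 and 38.8 in WT31. HCmel12 had 27.2, 36.1, 39.7, 28.9 and 32.7 CPM, B16F10 luc2 13.2, 16.9, 11.5, 12.4 and 17.6 and RET 9.96, 12.6, 19.5, 10.1 and 11.5. D4M was 9.18-fold above WT31 (log2 difference for WT31 against D4M -3.22 ± 0.12, adjusted p = 1.6e-18), and B16F10 luc2 and RET did not differ beyond the threshold (0.2 ± 0.19, adjusted p = 0.4). Unc5b and Unc5c thus changed places between lines. By TPM, Unc5c made up 79.5% to 85.4% of the sum of both in the libraries of B16F10 luc2, 82.6% to 89.3% in RET and 45% to 53.3% in WT31. It made up 0.636% to 2.02% in HCmel12 and at most 0.0131% in D4M, where TPM does not cover replicate 1. By counts over all D4M libraries, replicate 1 included, its share was at most 0.187%.

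In WT31, Robo2 (chr16:73891839-74411825) had 24.2, 20.6, 26.6, 24.3 and 21.9 CPM. The other lines had 2.25, 1.87, 0.712, 1.51 and 2.81 in D4M, 0.238, 0.912, 0.701, 0.495 and 0.653 in B16F10 luc2, 0.356, 0.223, 0.433, 0.28 and 0.154 in RET and 0.401, 0.478, 0.77, 0.404 and 0.528 in HCmel12. WT31 was 12.8-fold above D4M (log2 difference 3.79 ± 0.22, adjusted p = 1.9e-14). Robo1 and Robo2 lie 846 kb apart on chromosome 16 and encode receptors of the same ligands, but Robo1 was high in all 3 HIM-melanoma lines and Robo2 in WT31 alone.

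Sema3g (chr14:31217860-31230352), a secreted semaphorin that binds Nrp2, had 48.2, 64.3, 58.3, 36 and 50.6 CPM in HCmel12 and 1.54, 1.67, 1.34, 1.16 and 0.964 in RET. It had 0.531, 0.19, 0.233, 0.615 and 0.517 CPM in WT31, 0.159, 0.207, 0.247, 0.165 and 0.192 in B16F10 luc2 and 0, 0.0444, 0.134, 0.178 and 0.128 in D4M. HCmel12 was 38.6-fold above RET (log2 difference for RET against HCmel12 -5.25 ± 0.27, adjusted p = 4.4e-15). HCmel12 was also highest for Sema3d (11.7 ± 4.68 CPM) and Sema3e (16 ± 5.27 CPM). The lowest HCmel12 value of Sema3e, 7.39 CPM in replicate 4, lay apart from 14.8 to 20.7 CPM in the others, and without that library Sema3e was commonly lower in HIM-melanoma. With that library it was so called by edgeR's quasi-likelihood test and by DESeq2's Wald test, and by limma without D4M replicate 2. The comparison that missed the threshold with all libraries was RET against D4M (-0.51, adjusted p = 0.12 by limma), and without HCmel12 replicate 4 it was -0.52 ± 0.2 (adjusted p = 0.02). These neighbours of Sema3a on chromosome 5, at distances of 536 and 423 kb, did not share its high level in D4M, with 2.55 ± 1.37 and 6.53 ± 1.75 CPM there. Kdr, the endothelial marker and VEGF receptor, was at 30.9 CPM in HCmel12 and below 0.1 CPM in the means of the other lines. The other 3 endothelial markers averaged at most 0.108 CPM in HCmel12, and the highest mean among them was that of Pecam1 in B16F10 luc2, 1.5 CPM.

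The ligands and receptors with the highest TPM in each line completed the named members. Sema6d (chr2:124089969-124667770), the first ligand of WT31 with 181 ± 44.5 TPM (SD, n = 5), had 565, 595, 753, 653 and 979 CPM in WT31 and 162, 186, 198, 147 and 165 in D4M. It had 53.6, 52.3, 40.5, 52.8 and 39.7 CPM in B16F10 luc2, 65.9, 38.7, 38.9, 62.1 and 52.7 in RET and 12.9, 13.1, 12.8, 28.9 and 10.9 in HCmel12. WT31 exceeded all other lines, by 5.56 ± 0.21 on the log2 scale over HCmel12 (adjusted p = 7e-18), and the highest HCmel12 value belonged to replicate 4, the library that stands apart. Without that library this difference was 5.81.

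Sema3b (chr9:107597674-107609229), a secreted semaphorin known as a target of p53, was the first ligand of B16F10 luc2 (39.4 ± 2.53 TPM) and of RET (25.6 ± 0.62 TPM). In RET Sema4c came next with 24.3 ± 3.03 TPM, a spread that includes the mean of Sema3b. In CPM Sema3b had 68.1, 73.4, 69.3, 76.4 and 67.8 in B16F10 luc2, 49.6, 48.8, 49, 46.5 and 47.1 in RET and 59.4, 63, 72.4, 53.4 and 48.7 in D4M. HCmel12 had 20.1, 20.3, 22.6, 25.4 and 25 CPM and WT31 5.31, 1.67, 4.11, 4.5 and 2.4. Every WT31 library lay below all other libraries, and WT31 was 4.42 ± 0.19 below B16F10 luc2 on the log2 scale (adjusted p = 1e-16). In HCmel12 Sema4c led with 24.6 ± 3.87 TPM, and it had the smallest range over the lines among the 47 tested members, with 44.8 ± 4.41 CPM in B16F10 luc2 and 70 ± 10.5 CPM in D4M at its extremes. Its libraries had 43, 45.8, 45.7, 47.3 and 56.9 CPM in WT31, 41, 45.1, 46.5, 40.3 and 51.2 in B16F10 luc2, 55.8, 59.9, 57.2, 50.9 and 49.6 in RET, 64.3, 75.7, 76.1, 79.5 and 54.2 in D4M and 50.6, 61.2, 68.6, 47.7 and 63.2 in HCmel12. Ranges of neighbouring lines overlapped, and the largest difference, B16F10 luc2 against D4M, was -0.63 ± 0.11 on the log2 scale (adjusted p = 6.7e-06). D4M and HCmel12 differed by 0.26 (adjusted p = 0.026), and without HCmel12 replicate 4 by 0.2 ± 0.1 (adjusted p = 0.085).

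Plxnd1 (chr6:115954811-115995005), with 310 ± 65.6 TPM in B16F10 luc2 and 218 ± 76.4 in RET, was the member with the highest level in any line. It had 1360, 1200, 907, 938 and 1170 CPM in B16F10 luc2 and 649, 815, 1310, 751 and 618 in RET, where replicate 3 stood apart. The other lines had 171, 180, 238, 174 and 176 in HCmel12, 107, 82.4, 98.6, 87.7 and 113 in WT31 and 65.1, 61.8, 68.1, 60.7 and 61 in D4M. B16F10 luc2 exceeded D4M by 4.12 ± 0.15 on the log2 scale (adjusted p = 2e-18), and WT31 was on the side of the LM-melanoma lines, 11.4-fold below B16F10 luc2. Plxnb2 was the first receptor of WT31 (71.3 ± 9.05 TPM), D4M (150 ± 14.6 TPM) and HCmel12 (103 ± 9.05 TPM). Its values were 574, 618, 643, 558 and 576 CPM in D4M, 436, 456, 424, 422 and 417 in RET, 390, 378, 368, 343 and 394 in HCmel12, 305, 340, 344, 351 and 319 in B16F10 luc2 and 239, 241, 197, 221 and 182 in WT31. The lines spanned 2.75-fold in mean CPM, and WT31 was 1.46 ± 0.07 below D4M on the log2 scale (adjusted p = 7.7e-17).

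The remaining semaphorins varied between lines without a common sign across the classes. Sema3c, which acts in the cardiac neural crest, had 74.4 ± 15.7 CPM in WT31 and 3.37 ± 0.925 in B16F10 luc2, with the other 3 lines between 10.2 and 17.9. Sema3f, a repulsive ligand of Nrp2, had 53.8 ± 15.6 CPM in D4M and between 2.47 and 8.04 elsewhere. It lies 72.3 kb from Sema3b on chromosome 9, and the order of the lines differed between these 2 genes. Sema4b was highest in D4M (181 ± 33.4 CPM against 21.7 to 42.1). Sema4d, the ligand of plexin-B1, showed the reverse with 0.196 ± 0.0948 CPM in D4M and between 8.42 and 23.3 elsewhere. WT31 and HCmel12 differed in Sema4d by 0.25 (adjusted p = 0.037), and without HCmel12 replicate 4 by 0.19 ± 0.11 (adjusted p = 0.11). Sema4a was at 2.96 to 3.84 CPM in B16F10 luc2, RET and HCmel12 and below 0.3 CPM in WT31 and D4M. RET and HCmel12 differed in Sema4a (0.51 ± 0.22, adjusted p = 0.04) and in Sema6b (0.37 ± 0.16, adjusted p = 0.047) only when D4M replicate 1 and HCmel12 replicate 4 were both left out, and with all libraries the adjusted p was 0.11 and 0.064.

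Sema6a, a membrane ligand of plexins A2 and A4, had 158 ± 11.1 CPM in WT31, 50.9 ± 5.81 in RET, 26.9 ± 5.46 in D4M, 9.55 ± 1.74 in HCmel12 and 7.02 ± 0.712 in B16F10 luc2, and every neighbouring pair differed (adjusted p between 1.1e-14 and 0.029). Sema6b ran in another order with 13.8 ± 1.78 CPM in B16F10 luc2 and 0.396 ± 0.225 in WT31. Sema4g had 17.1 ± 5.17 CPM in HCmel12 (15 ± 2.62, n = 4, without replicate 4, the highest library) and 0.106 ± 0.0813 in WT31. Its difference between B16F10 luc2 and HCmel12 was -1.42 on the log2 scale (adjusted p = 2.4e-07) and -1.27 ± 0.16 without that library (adjusted p = 1.4e-07). Sema5b was detected in B16F10 luc2 (0.921 ± 0.199 CPM) and RET (0.328 ± 0.0909 CPM), had no counts in WT31 and D4M and 1 count in HCmel12. Sema6c remained at 1.06 ± 0.201 CPM or less in all lines. Among semaphorins WT31 was thus the highest line for Sema3c, Sema4d, Sema6a, Sema6c and Sema6d and among the lowest for Sema3b, Sema3d, Sema3e, Sema4g, Sema5b and Sema6b.

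Among the other plexins, Plxna1 had 632 ± 31.7 CPM in RET and 599 ± 32 in B16F10 luc2, which did not differ beyond the threshold (adjusted p = 0.38), and between 188 and 223 CPM in the other 3 lines. Plxnb1, the receptor of Sema4d, was highest in HCmel12 (98.4 ± 8.75 CPM) and lowest in D4M (14 ± 4.01 CPM), the line in which Sema4d was also lowest. Plxnb3 had 3.43 ± 1.22 CPM in WT31, 2.18 ± 0.523 in HCmel12 and less than 1 CPM in the others. Plxnc1, the receptor of Sema7a, had 191 ± 32.3 CPM in WT31 and 58.9 to 69.6 in B16F10 luc2, RET and HCmel12. With all libraries RET and HCmel12 differed by 0.28 ± 0.13 (adjusted p = 0.052), and without HCmel12 replicate 4, which had 89.2 CPM against 43.2 to 55.2 in the others, the difference was 0.44 ± 0.1 (adjusted p = 0.00035). The difference between B16F10 luc2 and HCmel12 likewise went from 0.12 (adjusted p = 0.42) to 0.27 ± 0.1 (adjusted p = 0.017) without that library, and Plxnc1 was then also commonly higher in HIM-melanoma. On TPM, which does not cover D4M replicate 1, it was commonly higher with HCmel12 replicate 4 included.

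Neuropilin-2, the co-receptor of Sema3f and Sema3g, had 461 ± 32 CPM in B16F10 luc2, 374 ± 28.3 in RET, 311 ± 23.9 in D4M, 72.9 ± 19.3 in HCmel12 and 7.29 ± 4.78 in WT31. Neighbours among the first 3 lines did not differ beyond the threshold (adjusted p = 0.09 and 0.11), but B16F10 luc2 and D4M did (adjusted p = 0.0012). Without HCmel12 replicate 4, which is in neither pair but enters the common fit, both neighbouring pairs passed (adjusted p = 0.023 and 0.039). WT31 was 10-fold below HCmel12. Neuropilin-1, the co-receptor of Sema3a, varied far less, from 19.9 ± 2.09 CPM in B16F10 luc2 to 62.7 ± 8.53 in D4M. Consequently Nrp1 contributed 91.7% of neuropilin TPM in WT31, whereas Nrp2 contributed between 65.4% and 92.6% in the other lines.

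Ntn4, a laminin-related netrin of basement membranes, was detected in D4M (20.8 ± 3.87 CPM) and WT31 (13.7 ± 2.53 CPM) and ranged from 1.13 to 2.25 CPM in the other lines. Dcc, the attractive netrin receptor, had 2.5 ± 0.87 CPM in WT31, 1.22 ± 0.573 in HCmel12, 0.57 ± 0.284 in RET and below 0.05 in B16F10 luc2 and D4M. RET and HCmel12 differed in Dcc by -1.04 on the log2 scale (adjusted p = 0.022), and without HCmel12 replicate 4 by -0.89 ± 0.41 (adjusted p = 0.058). Unc5a had 2.01 ± 0.103 CPM in WT31 and 1.02 ± 0.159 in D4M, was low in HCmel12 (0.161 ± 0.0981 CPM) and had no counts in any library of B16F10 luc2 or RET. WT31 was therefore the line with most netrin receptors above 1 CPM on average, namely Dcc, Neo1, Unc5a, Unc5b and Unc5c. By TPM, 3 netrin receptors were above 1 in WT31, as many as in B16F10 luc2 and RET.

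Teneurins divided the lines differently from each other. Tenm2 was found in HCmel12 (13.6 ± 4.04 CPM) and WT31 (9.58 ± 1.38 CPM) and was at most 0.138 CPM on average elsewhere. Tenm4 was present in all lines, from 54.8 ± 15.5 CPM in WT31 to 7.62 ± 4.98 in HCmel12, where replicate 4 had 16.3 CPM against 3.68 to 6.49 in the others. Between B16F10 luc2 and HCmel12 the log2 difference was 0.66 (adjusted p = 0.096) and without that library 0.98 ± 0.36 (adjusted p = 0.019). Tenm2 differed between B16F10 luc2 and D4M, both near 0, without D4M replicate 1 (adjusted p = 0.045) and not with it (adjusted p = 0.062). Tenm2 lies 298 kb from Slit3 on chromosome 11, and these 2 neighbours were detected in different lines, Slit3 in D4M and Tenm2 in HCmel12 and WT31.

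Downstream mediators and partners of these receptors were taken from a list of 57 genes, of which 48 were tested. Commonly higher in HIM-melanoma were 4 of them and lower 2, where the shares over all tested genes were the 6.53% and 6.4% given above. The 4 were Mical3, a relative of the plexin effector Mical1, Arhgef11, which links plexin-B receptors to RhoA, Draxin, a secreted ligand of Dcc, and Ntng2, a netrin-G, and the 2 were Srgap2, an effector of Robo receptors, and Flrt3, a partner of Unc5 receptors and latrophilins. Mical3 had 202 ± 9.13 CPM in B16F10 luc2 and 18.7 ± 1.79 in D4M. Flrt3 had 69.9 ± 4.74 CPM in D4M and 28.3 ± 5.13 in HCmel12, against 9.55 to 11.5 in HIM-melanoma. The widest ranges over the lines were those of Flt1, Flrt2, Pak1 and Dpysl5. Flt1 had 200 ± 20.7 CPM in D4M and less than 0.1 in the means of the other lines, and Flrt2 had 87.7 ± 13.9 CPM in D4M, 25 ± 4.22 in WT31 and a single count or none in the other lines. Dpysl5, a collapsin response mediator protein, had 108 ± 19.2 CPM in WT31 and 39.1 ± 2 in HCmel12 but below 0.11 CPM in the means of the other lines. The median log2 range of the 48 genes was 3.39, against 5.56 for the guidance genes and 1.41 for all tested genes.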

How the data were processed

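RNA-seq of 25 libraries from 5 cell lines was analysed, with 5 biological replicates per line. The authors trimmed reads with Trim Galore 0.6.4 and quantified transcripts with kallisto on GRCm38.p6, whose version is given as 0.4.6 in the submitters' processing notes and as 0.46.1 in the study's methods. The deposited values are estimated counts per gene and TPM, both produced by the authors from kallisto output. TPM of D4M replicate 1 was not used here, so TPM covers 24 libraries. Whether counting used strand is not given in the sources used here.

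The 52 members and the other lists were chosen with earlier results of these data known. Genes were filtered with edgeR 4.0.16 (filterByExpr by line) and scaled by TMM. One model over all 25 libraries was fitted with voom and limma 3.58.1 in R 4.3.3, with Benjamini-Hochberg adjustment over all 15247 tested genes in each comparison and a threshold of 0.05. Log2 differences are given with SE, and levels with SD. Against a line with 0 counts a fold is a lower bound from 3 counts over the line. A ratio to a line with 1 to 3 counts carries a 95% interval for counting error only. The scripts were tested on simulated data.

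Genes were named by rule, namely the commonly regulated members, the members restricted to 1 line, and the ligand and receptor with the highest TPM of each line. The other members were described by level and order. Alternatives were library size alone, DESeq2 1.42.0 size factors and test, edgeR's quasi-likelihood test, other filters, fits of only the lines compared, TPM with pseudocounts of 1 and 0.1, stricter thresholds, a replicate block and omission of each library. For both count tests estimated counts were rounded. Leaving out D4M replicate 1 and HCmel12 replicate 4 together was chosen after seeing the data. Libraries of a line differed by more than sampling noise.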

Additional observations from a re-analysis of the deposited data

Results flagged for a closer look

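Single libraries far from the other replicates of their line were found in 11 of 97 tested groups of 5, where chance gives about 1 in 20. RET replicate 3 stood apart for 4 genes. It had 0.0788 CPM of Ntn1 against 0.277 to 0.347, 0.394 CPM of Plxna4 against 0.079 to 0.154, 19.5 CPM of Unc5b against 9.96 to 12.6 and 1310 CPM of Plxnd1 against 618 to 815. Elsewhere in RET, replicate 2 had 58.4 CPM of Robo1 against 48.2 to 50.5, and replicate 1 had 0.988 CPM of Sema7a against 0.501 to 0.6. In HCmel12, replicate 1 had 15.5 CPM of Sema5a against 6.71 to 8.92, replicate 3 had 238 CPM of Plxnd1 against 171 to 180, and replicate 4 had 28.9 CPM of Sema6d against 10.9 to 13.1. In D4M, replicate 1 had 0.827 CPM of Unc5c against 0 to 0.0851, and replicate 3 had 524 CPM of Unc5b against 439 to 459. The causes were not tested.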

How the results depend on the processing

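None of the 27 named differences changed direction in the alternatives in which it was tested. Of them 4 lost the threshold in at least 1 setting, those of Neo1, Ntn3, Plxna2 (WT31 against HCmel12) and Sema4c. Not every difference was tested in every setting. The filter of at least 10 counts in every library left out Unc5c, Robo1, Sema4f, Tenm3 and Sema3a, among others. On TPM, those of Ntn1, Plxna2, Sema3a and Slit3 were not tested. Plxna2 (-0.93) and Sema4c (-0.63) lost it only where a log2 fold change of 1 or more in size was also required, Ntn3 (0.93) there and on TPM, and Neo1 (-0.2) also at an adjusted p below 0.01 and without RET replicate 1. Requiring at least 10 counts in every library left 20 members for testing and removed genes that are low in some line. The counts of members that differed were then 17 for WT31 against B16F10 luc2, 18 against RET, 20 against D4M and 18 against HCmel12, 12 for B16F10 luc2 against RET, 19 against D4M and 16 against HCmel12, 18 for RET against D4M and 17 against HCmel12, and 18 for D4M against HCmel12, where 56.7% to 78.7% of all 10497 genes tested differed, with 0 members commonly higher and 3 commonly lower in HIM-melanoma (6.87% and 6.14% of all). The condition on size left 15 members for B16F10 luc2 against RET and removed Ntn3, Neo1 and Plxna2 from the commonly regulated members (1.67% of all genes higher and 2.46% lower). When each library was left out in turn, 4 to 5 members were commonly higher (6.15% to 6.64% of all genes) and 5 to 7 commonly lower (6% to 6.64%). The counts per pair ranged from 37 to 39, 39 to 42, 45 to 45 and 36 to 39 for WT31 against the lines in the order above, 25 to 29, 40 to 42 and 34 to 37 for B16F10 luc2, 40 to 43 and 33 to 37 for RET, and 42 to 44 for D4M against HCmel12, where 47.8% to 78.6% of all tested genes differed over these pairs and omissions. Without RET replicate 1 Neo1 was lost (-0.16, adjusted p = 0.061 by limma), and without HCmel12 replicate 4 Plxnc1 was added to the genes higher and Sema3e to those lower in HIM-melanoma, as when D4M replicate 1 was left out together with it (5 higher and 7 lower, 6.49% and 6.59% of all). Sema3e was also added by edgeR's quasi-likelihood test, by DESeq2's Wald test and without D4M replicate 2 (7 lower each, with 6.42% of all by edgeR and 6.98% by DESeq2). On TPM, with 37 members tested and Plxna2 not among them, Plxnc1, Robo1, Sema4f and Unc5c were commonly higher and Plxna3, Sema5a, Slit2 and Tenm3 lower (8.96% and 3.83% of all with a pseudocount of 1), and with that pseudocount the smallest Neo1 difference was -0.19 (adjusted p = 0.057) and that of Ntn3 0.22 (adjusted p = 0.12). Replicate numbers did not pair the samples, since correlations of deviations between libraries with the same number ranged from -0.13 to 0.14. With the replicate block 4 members were commonly higher and 6 lower (6.61% and 6.47% of all), and 30 differed between B16F10 luc2 and RET, where 51.5% to 78.1% of all tested genes differed over the 10 pairs. Genes with few counts in a line have folds set by counting error, and each line is a single line, so differences between classes rest on 3 lines against 2.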
